A study of Mus musculus with 8 samples.

Results

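The genes described here mark the cells and vessels of a lymph node: 16 B cell genes, 18 T cell genes and 6 genes of lymph node stroma, vessels and the cytokines that organise it. They were chosen by name, and each was read from the probe set that the platform annotation pairs with exactly 1 gene symbol, the brightest on average where a gene had several. Of the 40 genes 39 were measured, out of 19938 genes in the series. No probe set was paired with Lck, the kinase that starts T cell receptor signalling, and its level was not analysed here. They were read in the mammary gland of 8 virgin females, aged 5 weeks, from a cross of C57BL/6 and FVB. All 8 carried MMTV-Cre, in which a viral promoter of mammary tumours expresses the recombinase in mammary epithelium and, in some lines, in lymphoid cells too. In 4 mice both Sox9 alleles were floxed (flox/flox), and in the 4 controls 1 allele was floxed and the other wild type (flox/+), so that no group lacked Cre or the floxed allele. The piece taken from the fourth gland was the part nearest to its lymph nodes, and each piece gave the RNA for 1 Affymetrix Gene 1.0 ST array. Tissue identifiers begin with R in all controls and with S or T in all flox/flox glands, and what those letters mark cannot be told apart from genotype.

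A lymph node sorts its cells into follicles, where B cells gather, and a surrounding zone of T cells. B cells read antigen through membrane immunoglobulin bound to the CD79 chains, and T cells through a receptor bound to the CD3 chains with CD4 or CD8 beside it. Lymphocytes enter from the blood through high endothelial venules, whose lining carries sulphated sugars on proteins such as GlyCAM-1. The mammary epithelium also makes GlyCAM-1, as a milk protein, so its gene marks a lymph node only together with other genes.

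In whole tissue, fewer cells of a type and less RNA per cell cannot be told apart. Intensities are in arbitrary units after quantile normalization between arrays, and no detection calls came with the values, so low readings cannot be told from background. Sox9 itself read between 366 and 448 in the controls and between 287 and 356 in flox/flox glands, with a log2 difference of -0.33 ± 0.09 (SE, n = 4 per genotype) a limma adjusted p of 0.256 and p = 0.0286 in a 2-sided exact permutation test, the smallest p this design allows. Genes of the gland itself were present in every piece: the luminal keratin gene Krt19 read 3524 to 4867, the myoepithelial actin gene Acta2 3930 to 5352 and the adipocyte gene Fabp4 8535 to 10721.

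A single control gland, flox/+ replicate 2, stood apart from the other 7 in the lymphocyte and lymph node genes. It held the highest of the 8 readings for 33 of the 39 measured genes, whereas over all 19938 genes it was the highest array for 10.3%. For 14 of the 39 its reading was at least 1.5 times that of the next array, on the scale of intensity plus 16 that is used for every ratio here. The same was true of 0.241% of all genes, or 48 genes. In each of the other 7 arrays between 2 and 13 genes exceeded the next array by that factor, and 0 of them were lymphocyte or lymph node genes. The results that follow are therefore given by array first, and between genotypes with and without flox/+ replicate 2.

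**Figure D1:**
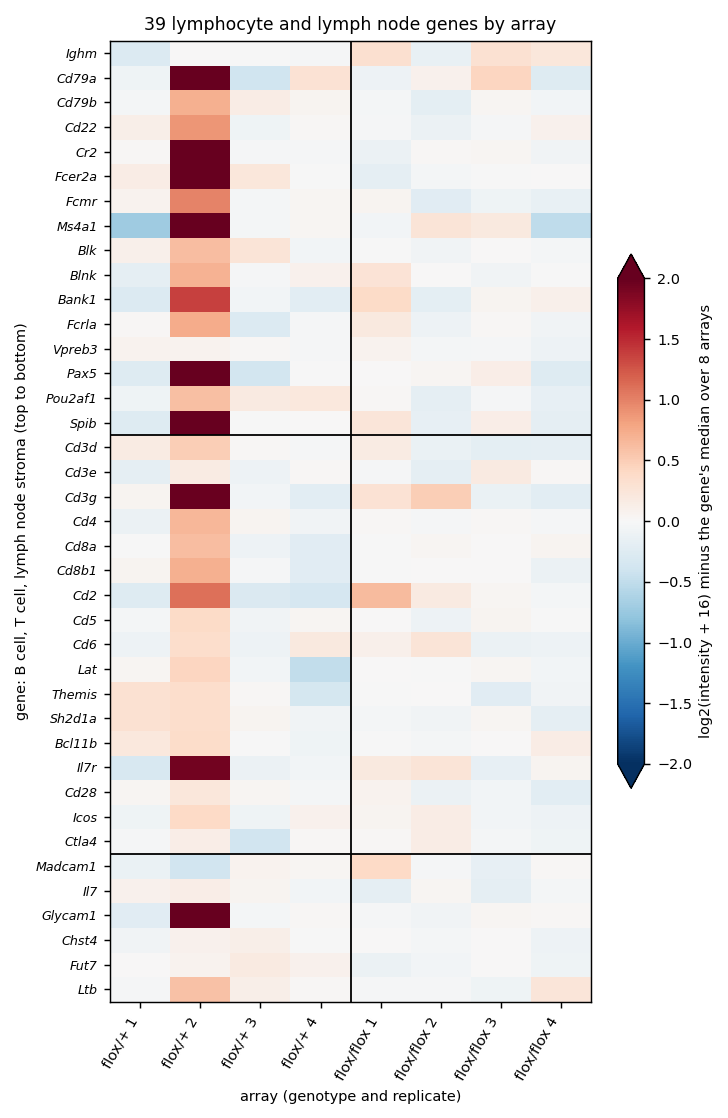
Each row is 1 of the 39 measured genes and each column 1 array. Colour is log2(intensity + 16) minus the gene's own median over the 8 arrays, cut at -2 and 2, and lines separate the 3 gene groups and the genotypes. The column of flox/+ replicate 2 is raised in most B and T cell rows, and Madcam1, Chst4, Fut7, Il7 and Vpreb3 lie close to or below their medians there.

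**Figure D2:**
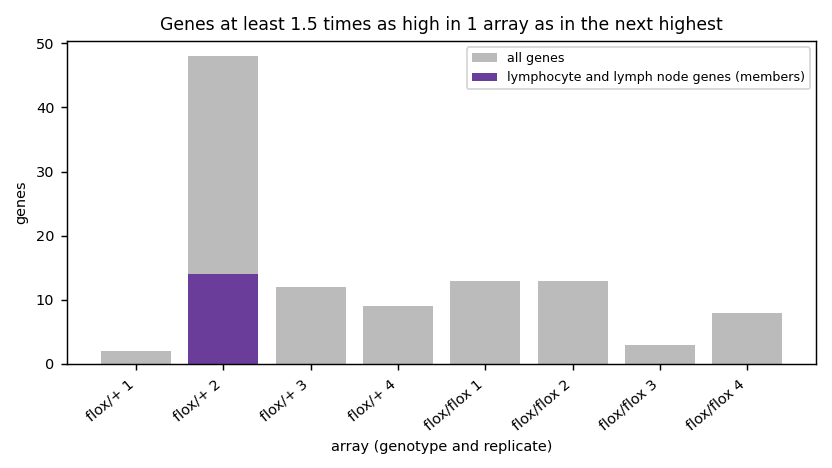
Bars count genes whose highest array, named on the horizontal axis, read at least 1.5 times the next highest array. Grey bars are all 19938 genes and the purple part is the 39 lymphocyte and lymph node genes. flox/+ replicate 2 has 48 such genes, 14 of them in purple.

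Among the B cell receptor and co-receptor genes, Cd79a, which encodes the signalling chain Ig-alpha of the B cell receptor, showed the widest gap. It read 43.7, 1073, 32.0 and 61.3 in flox/+ replicates 1 to 4 and 42.9, 51.2, 69.7 and 36.9 in flox/flox replicates 1 to 4. The reading in flox/+ replicate 2 was 12.7 times the next highest, and the other control readings lay within the range of the flox/flox glands except for the lowest. Cr2 encodes complement receptor 2, carried by B cells and by follicular dendritic cells. It read 77.0, 957, 74.5 and 74.0 in the controls and 68.4, 76.9, 78.0 and 71.2 in flox/flox glands, so that 7 glands differed by no more than 1.11-fold and flox/+ replicate 2 read 10.4 times the next. Fcer2a, the low-affinity IgE receptor CD23 of follicular B cells, read 80.4, 635, 86.1 and 70.8 against 60.9, 69.0, 70.6 and 71.6. Ms4a1, which encodes CD20, read 21.5, 375, 43.4 and 47.2 against 43.2, 57.3, 54.1 and 27.3. Apart from flox/+ replicate 2 the genotypes overlapped for Ms4a1, and for Fcer2a they overlapped at the lowest control reading.

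The other surface genes of this group had the same highest array but a narrower gap. Fcmr, the receptor for IgM, read 289 in flox/+ replicate 2 and 115 to 145 elsewhere. Cd22, an inhibitory co-receptor, read 222 there and 104 to 125 elsewhere. Cd79b, the partner chain Ig-beta, read 319 there and 162 to 211 elsewhere. Ighm, the constant region of IgM, was the B cell gene that did not follow: its chosen probe set read 210, 259, 258 and 254 in the controls and 326, 233, 324 and 305 in flox/flox glands. Its other 2 probe sets were highest in flox/+ replicate 2, at 252 against 161 to 237 elsewhere and at 46.8 against 0.0025 to 26.1 elsewhere. The probe sets of Ighm thus disagreed on the order of the arrays.

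Of the B cell transcription factor genes, Spib and Pax5 stood furthest out. Spib encodes Spi-B, an ETS factor of B cells and plasmacytoid dendritic cells, and read 102, 909, 124 and 126 in the controls and 150, 110, 138 and 109 in flox/flox glands. Pax5, which fixes B cell identity, read 113, 761, 103 and 137 against 139, 142, 152 and 113. For both genes the remaining 3 controls lay among or below the flox/flox readings. Pou2af1, the coactivator that B cells use at octamer sites, read 140 in flox/+ replicate 2 and 74.3 to 103 elsewhere.

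Signalling genes of B cells showed smaller gaps. Bank1, a scaffold protein, read 272 in flox/+ replicate 2 and 75.9 to 129 elsewhere, and Blnk, the adaptor that links the receptor to phospholipase C, read 155 there and 76.9 to 111 elsewhere. Fcrla, an Fc receptor-like protein held inside B cells, read 170 against 76.2 to 111, and the kinase gene Blk 139 against 79.9 to 105. Vpreb3, which is expressed mainly by developing B cells, read 204 in flox/+ replicate 2 and 179 to 202 in the other glands, a ratio of 1.01 to the next. Of the 15 B cell genes that were highest in this gland, Vpreb3 had the smallest lead.

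T cell genes were highest in flox/+ replicate 2 for 15 of the 17 measured, with gaps that were mostly narrow. Il7r, the receptor chain through which resting T cells take up the survival signal of interleukin 7, had the widest. It read 160, 826, 187 and 196 in the controls and 235, 246, 180 and 212 in flox/flox glands. Cd3g, a chain of the T cell receptor complex, read 87.0, 376, 79.8 and 70.1 in the controls and 105, 123 and 74.7 in flox/flox replicates 1 to 3, with replicate 4 level with the lowest control. The chains encoded beside it differed: Cd3d read 84.1 in flox/+ replicate 2 and 46.1 to 63.6 elsewhere, whereas Cd3e read 199 there and 153 to 201 elsewhere, with flox/flox replicate 3 highest. The probe sets for 3 chains of 1 complex therefore gave ratios to the next array of 2.82, 1.26 and, for Cd3e, no lead.

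The co-receptor genes agreed more closely with each other. Cd4 read 220 in flox/+ replicate 2 against 122 to 140 elsewhere, Cd8a 250 against 131 to 164 and Cd8b1 239 against 118 to 146. The ratios to the next array were 1.51, 1.47 and 1.58. Cd2, an adhesion receptor of T and natural killer cells, read 126, 351, 124 and 119 in the controls and 249, 177, 160 and 149 in flox/flox glands. Here flox/flox replicate 1 was also high, and all 4 flox/flox readings lay above the 3 lower controls. Cd5 and Cd6, scavenger receptor family members that dampen receptor signals, read 147 and 121 in flox/+ replicate 2 and had ratios of 1.25 and 1.07 to the next array.

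Among the signalling genes, Lat, the adaptor downstream of the T cell receptor, read 162 in flox/+ replicate 2 and 78.5 to 120 elsewhere. Themis, Sh2d1a and Bcl11b, which act in T cell selection, in help for B cells and in T cell commitment, led by ratios of 1.03, 1.04 and 1.12. The costimulatory receptor genes Cd28 and Icos led by 1.11 and 1.20. Ctla4, the inhibitory counterpart of Cd28, read 66.5 in flox/+ replicate 2 and 67.4 in flox/flox replicate 2, so that neither array stood out.

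Of the stroma and vessel genes, Glycam1 alone set flox/+ replicate 2 widely apart. Glycam1 had the largest ratio of highest to next array of all 19938 genes, 35.9, with readings of 93.3, 4672, 108 and 114 in the controls and 110, 106, 115 and 113 in flox/flox glands. In the 7 other glands it varied by no more than 1.20-fold. Milk protein genes gave no such gap: Csn2, a beta-casein gene, read 102 in flox/+ replicate 2 and 98.5 to 140 elsewhere, and Csn3, the kappa-casein gene, read 1418 there and 1214 to 2006 elsewhere. Of the 8 measured milk protein genes 0 were highest in that gland, beside 10.3% of all genes. A count of 0 among so few genes says little next to that share.

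Ltb, the lymphotoxin chain by which lymphocytes instruct stroma, read 151 in flox/+ replicate 2 and 88.7 to 115 elsewhere. The other 4 genes of the group did not single out this gland. Madcam1, the mucosal addressin of venules and of follicular dendritic cells, was lowest there, at 62.9, and highest at 119 in flox/flox replicate 1. Chst4, which sulphates the sugars of high endothelial venules, read 67.2 there and 56.8 to 68.9 elsewhere. Fut7, the fucosyltransferase that completes selectin ligands, read 107 against 91.5 to 117, and Il7, the T cell survival cytokine, 84.4 against 64.7 to 81.1. The readings of Chst4 and Fut7 thus did not follow those of Glycam1. Like Madcam1, Il7 and Ltb, both enzyme genes were among the dimmest genes by mean level, where readings cannot be told from background. Whether the transcripts of Madcam1, Il7, Chst4 and Fut7 followed Glycam1 can therefore not be told.

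**Figure D3:**
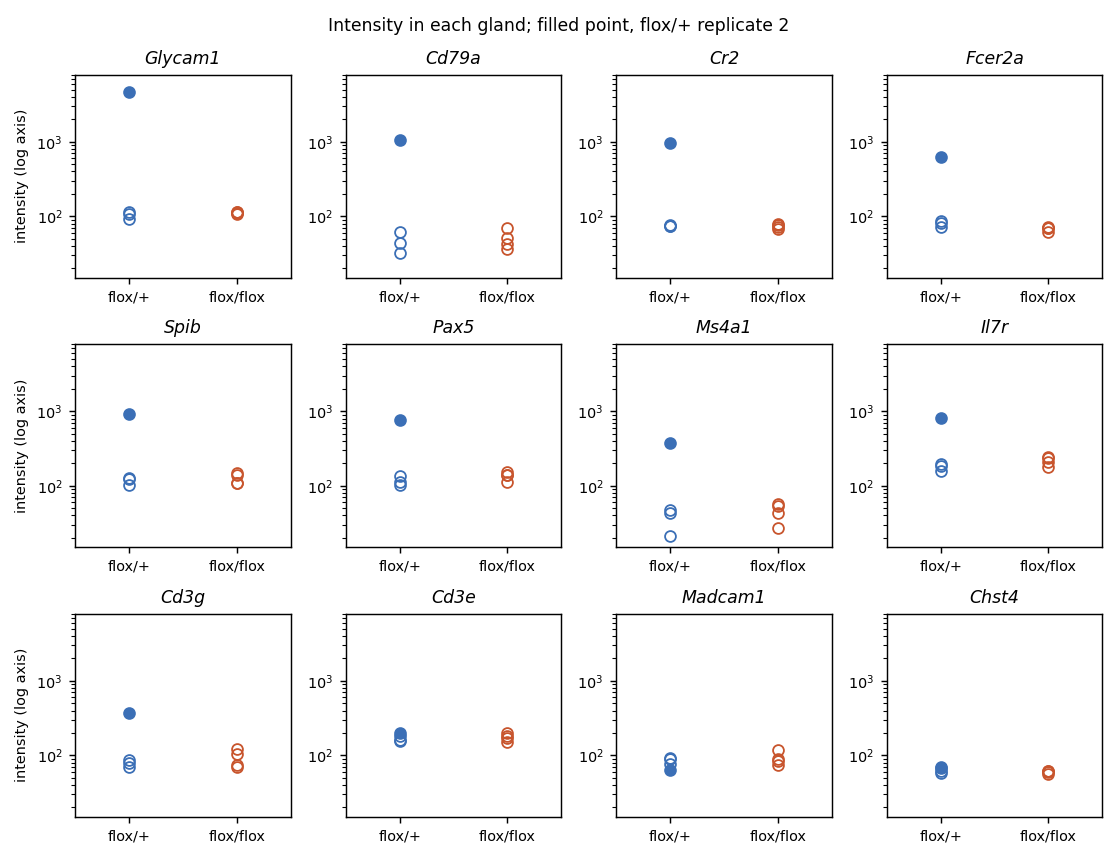
Intensity of 12 genes in each gland on a log axis, with flox/+ glands in blue, flox/flox glands in orange and flox/+ replicate 2 filled. The filled point lies apart in the first 9 panels, Glycam1 to Cd3g, and within or near the others in the panels of Cd3e, Madcam1 and Chst4.

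Promoter sequences are shown for Glycam1, Cd79a, Cr2 and Spib, 4 of the 5 genes with the widest gaps, and for Madcam1 and Ltb, which held the NF-kB match. Fcer2a, the remaining gene of the 5, has several promoters in the table and is not shown. They come from RefSeq on build GRCm38.p6 and run from 250 bases before to 50 bases after the start of the gene, 5′ to 3′ on its strand. The table held 33 promoters of 28 of the 40 genes, Lck included. Capitals mark matches, on either strand, to the 5 motifs searched: the octamer ATGCAAAT, the NF-kB site GGGACTTTC, the E box CACCTG bound by E proteins of lymphocytes, the core GGAAGT of ETS factors and the EBF1 site CCCNNGGGA. In the Madcam1 promoter the EBF1 and NF-kB matches overlap and run together.
Glycam1 (chr15:103565032-103565331, strand -): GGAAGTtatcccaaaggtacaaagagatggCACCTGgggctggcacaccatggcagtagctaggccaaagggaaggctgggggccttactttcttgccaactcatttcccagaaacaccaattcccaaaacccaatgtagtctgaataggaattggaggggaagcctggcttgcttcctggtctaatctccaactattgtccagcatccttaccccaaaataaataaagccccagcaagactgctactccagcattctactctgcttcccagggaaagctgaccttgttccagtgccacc
Cd79a (chr7:24897247-24897546, strand +): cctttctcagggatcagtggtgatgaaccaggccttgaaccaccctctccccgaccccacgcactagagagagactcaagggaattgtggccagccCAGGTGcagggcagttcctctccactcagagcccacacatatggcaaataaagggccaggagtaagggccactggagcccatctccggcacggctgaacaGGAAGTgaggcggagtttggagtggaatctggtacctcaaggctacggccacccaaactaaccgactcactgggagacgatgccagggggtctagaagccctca
Cr2 (chr1:195176670-195176969, strand -): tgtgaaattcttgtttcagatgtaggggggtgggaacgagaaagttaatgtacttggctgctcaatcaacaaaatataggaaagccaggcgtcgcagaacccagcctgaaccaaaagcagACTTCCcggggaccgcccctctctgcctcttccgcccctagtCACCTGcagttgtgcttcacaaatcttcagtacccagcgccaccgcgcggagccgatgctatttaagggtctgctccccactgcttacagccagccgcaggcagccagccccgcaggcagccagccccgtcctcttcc
Spib (chr7:44532022-44532321, strand -): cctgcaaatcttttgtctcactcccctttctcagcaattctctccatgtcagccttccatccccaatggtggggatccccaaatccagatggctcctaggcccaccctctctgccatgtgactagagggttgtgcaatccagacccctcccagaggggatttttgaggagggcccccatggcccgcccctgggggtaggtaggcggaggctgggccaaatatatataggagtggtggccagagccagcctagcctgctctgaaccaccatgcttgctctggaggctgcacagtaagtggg
Madcam1 (chr10:79664309-79664608, strand +): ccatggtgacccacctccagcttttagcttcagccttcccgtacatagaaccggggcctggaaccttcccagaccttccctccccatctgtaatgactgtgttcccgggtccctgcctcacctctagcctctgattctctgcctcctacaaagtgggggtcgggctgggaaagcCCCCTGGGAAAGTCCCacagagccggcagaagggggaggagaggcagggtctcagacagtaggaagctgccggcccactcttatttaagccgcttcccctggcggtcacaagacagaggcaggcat
Ltb (chr17:35194257-35194556, strand +): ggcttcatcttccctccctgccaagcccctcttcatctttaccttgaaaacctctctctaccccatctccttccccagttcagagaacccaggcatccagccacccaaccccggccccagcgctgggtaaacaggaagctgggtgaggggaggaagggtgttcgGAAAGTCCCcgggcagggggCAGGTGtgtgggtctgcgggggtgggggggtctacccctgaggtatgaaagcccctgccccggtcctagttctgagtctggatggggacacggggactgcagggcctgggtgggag

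The Glycam1, Cd79a and Cr2 promoters each held 1 E box and 1 ETS core, and that of Spib held none of the motifs. The E box was present in 17 of the 33 promoters of the 28 genes (51.5%) and in 20.2% of all 32851 promoters in the table, and the ETS core in 45.5% against 23.8%. The NF-kB site was found in 0.353% of all promoters and, among these genes, in those of Madcam1 and Ltb. The octamer was found in 1.74% of all promoters and in those of Blnk and Vpreb3, and the EBF1 site in 6.56% and in those of Cd22 and Madcam1. These matches describe letters in a short window, and the motifs were chosen with the expression values and the promoters known.

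Summed over a group, the same gland led each time. The mean over the B cell genes of log2(intensity + 16) minus each gene's median was 1.55 in flox/+ replicate 2 and between -0.10 and 0.07 in the other 7 glands. For T cell genes it was 0.63 against -0.11 to 0.08, and for stroma genes, through Glycam1 and Ltb, 0.95 against -0.07 to 0.08. Within genotypes the SD of the log2 values had a median of 0.249 over the 39 genes and 0.120 over all genes. Without flox/+ replicate 2 the medians were 0.129 and 0.120. The larger spread of the 39 genes was thus that of a single array.

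Further genes of the same cells, from lists written for this comparison, were read in the same way. Of 24 other B cell genes 15 were highest in flox/+ replicate 2, as were 18 of 26 other T cell genes, 8 of 12 homing and egress receptors, 11 of 14 pan-leukocyte genes and 8 of 20 genes for the cytokines and chemokines that organise lymph nodes. The 3 brightest B cell genes of that list, Ly6d, Ebf1 and Ly86, were not highest there, and Ly6d, which keratinocytes also express, read 1264 there against 1679 to 2205 elsewhere. Ebf1 read 1143 to 1401 and Ly86 343 to 612 over all glands, also in those where Cd79a read at most 69.7. How far these 3 genes report B cells in this tissue was not tested. The leading gene outside the 40 was Cxcl13, the chemokine of B cell follicles, at 65.6, 2115, 85.9 and 114 in the controls and 65.4 to 98.4 in flox/flox glands. Its receptor gene Cxcr5 read 102 in flox/+ replicate 2 and 14.2 to 30.2 elsewhere. Among genes of the T cell zone the chemokine gene Ccl19 read 252 against 132 to 182, and its receptor gene Ccr7 362 against 197 to 242. Cxcl13, Cxcr5, Ccl19 and Ccr7 were singled out after their values were seen.

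The brightest genes of the lists mostly led by less or not at all. Of the T cell list, Gimap4, a GTPase of lymphocyte survival, read 710 in flox/+ replicate 2 and 382 to 691 elsewhere, while Thy1, which fibroblasts also express, read 846 against 663 to 1284. Of the homing list, the chemokine receptor gene Cxcr4 read 805 there and 409 to 587 elsewhere, S1pr1, the receptor for egress, 828 against 691 to 968 and its regulator Klf2 526 against 404 to 597. Cxcr4 and Gimap4 were thus highest in that gland, by ratios of 1.36 and 1.03, and the others were not. Of the organising list Mfge8 read 2384 in flox/+ replicate 2 and 1621 to 2312 elsewhere, a ratio of 1.03 to the next. Clu read 1403 against 828 to 1121, and Tnfsf11, which encodes RANKL, 898 against 703 to 936. Among pan-leukocyte genes Laptm5 read 871 there and 497 to 880 elsewhere and Lsp1 1083 against 849 to 1147. The common leukocyte antigen gene Ptprc, also among the brightest of that list, read 1200 against 440 to 708, a ratio of 1.68 to the next. The germinal centre genes Basp1, Bcl6 and S1pr2, Cd34, Slco2a1 and Emcn of the venule list and the cytotoxic gene Prf1 were each highest in another gland. Cd34, Slco2a1 and Emcn read at least 562 in every gland, also in those where Glycam1 read at most 115. How far they report lymph node venules in this tissue was not tested. Nkg7, a cytotoxic granule gene, read 429 in flox/+ replicate 2 and 428 in flox/flox replicate 3.

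Other lists shared the lead less or not at all. Over all genes, 10.3% were highest in flox/+ replicate 2. The share was 30.8% for natural killer and cytotoxic genes, 18.2% for plasma cell and for germinal centre genes and 8.33% for venule genes. Plasma cell and immunoglobulin genes were highest in flox/+ replicate 2 for 2 of 11, germinal centre genes for 2 of 11, natural killer and cytotoxic genes for 4 of 13 and high endothelial venule genes other than the 6 above for 1 of 12. Markers of other cells of the gland were highest there for 1 of 10 macrophage and monocyte genes, 1 of 10 basal genes and 0 of the luminal, adipocyte, fibroblast, endothelial and skeletal muscle lists, which had 12, 11, 11, 11 and 10 measured genes. The mean level of luminal markers in flox/+ replicate 2 lay at -0.15, the lowest but for -0.19 in flox/flox replicate 1. Across the 8 glands the macrophage mean ran from -0.38 to 0.23, the fibroblast mean from -0.21 to 0.23 and the endothelial mean from -0.14 to 0.25, with no gland set apart as in the B cell genes. The brightest macrophage gene, Lyz2, read 2812 in flox/+ replicate 2 and 1587 to 3481 elsewhere, the collagen gene Col3a1 9878 against 7351 to 10992 and the endothelial cadherin gene Cdh5 984 against 921 to 1280. Whether the amount of lymph node in each piece accounts for these readings was not tested.

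**Figure D4:**
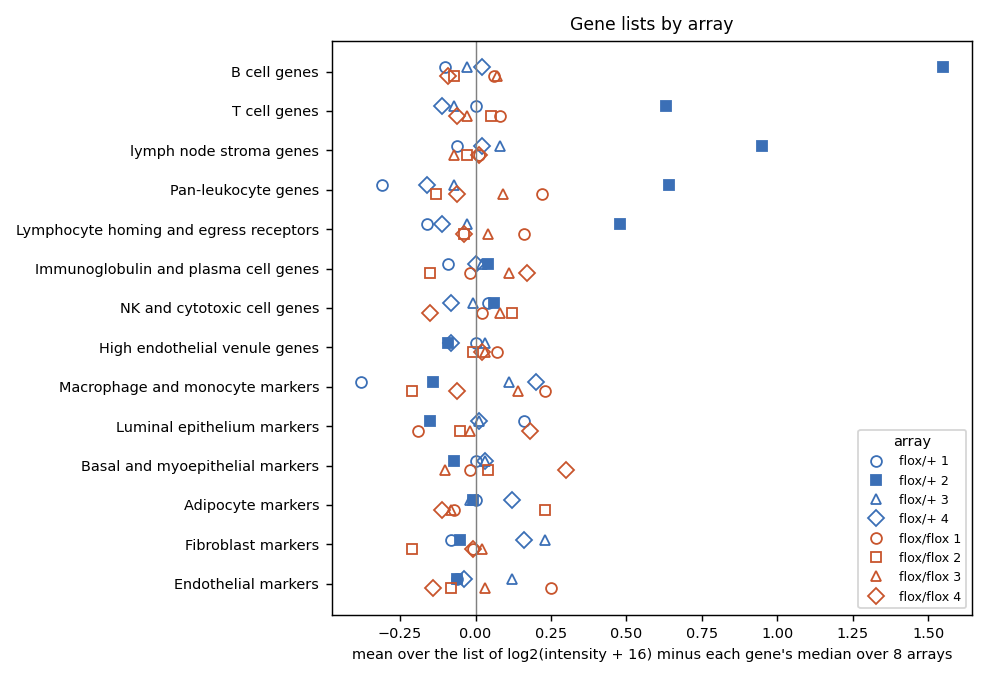
Each point is the mean over a gene list, in 1 array, of log2(intensity + 16) minus each gene's median over the 8 arrays. Blue is flox/+ and orange flox/flox, shapes give the replicate and the filled square is flox/+ replicate 2. That square lies at 1.55, 0.63 and 0.95 for the B cell, T cell and stroma genes and at 0.64 for pan-leukocyte genes, and between -0.15 and 0.06 for the plasma cell, natural killer and venule lists and the lists of other cell types shown.

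Between the genotypes, none of the 39 genes passed the test. The count with a limma adjusted p under 0.05 was 0, where 0.0401% of all genes passed, and 4 had an unadjusted p under 0.05, beside 10.3% of all genes. Those 4 were Ighm, higher in flox/flox glands (log2 difference 0.26 ± 0.11 SE, adjusted p = 0.468), and Pou2af1 (-0.31 ± 0.13, adjusted p = 0.441), Sh2d1a (-0.22 ± 0.10, adjusted p = 0.477) and Fut7 (-0.15 ± 0.07, adjusted p = 0.481). For Ighm this held for the chosen probe set, and the others differed by 0.10 ± 0.13 and 0.23 ± 0.39. The mean over its probe sets differed by 0.20 ± 0.18 (limma adjusted p = 0.751). The readings of the genotypes overlapped for all 39, while 5.89% of all genes had readings without overlap.

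The log2 difference, flox/flox minus flox/+, was negative for 33 of the 39 genes and for 52.6% of all genes. Its median was -0.30 over the B cell genes, -0.09 over the T cell genes, -0.15 over the stroma genes and -0.01 over all genes. The widest differences had the widest errors. Glycam1 differed by -1.25 ± 0.99 (SE, n = 4 per genotype, adjusted p = 0.713, 95% interval -3.44 to 0.94), from 1250 ± 2280 (SD) in flox/+ to 111 ± 3.76 in flox/flox glands. Cd79a differed by -0.94 ± 0.80 (adjusted p = 0.734), from 303 ± 514 to 50.2 ± 14.3, and Cr2 by -0.88 ± 0.64 (adjusted p = 0.683). In each of these genes the control SD exceeded the control mean.

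Without flox/+ replicate 2 these differences lay near 0 or had the other sign. The log2 difference was then 0.07 ± 0.08 for Glycam1, 0.10 ± 0.18 for Cd79a, -0.03 ± 0.07 for Cr2, 0.09 ± 0.12 for Spib and 0.21 ± 0.21 for Ms4a1. It was negative for 17 of the 39 genes, beside 53.4% of all genes, and its median was 0.03 over the B cell genes, 0.04 over the T cell genes and -0.03 over the stroma genes. Again 0 of the 39 passed, beside 0.0502% of all genes, and 2 had an unadjusted p under 0.05, beside 9.42%.

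Those genes were Ighm, by its chosen probe set (0.28 ± 0.12), and Cd2 (0.50 ± 0.14, adjusted p = 0.316). Readings without overlap were found for Cd2 and Cd8a, 2 of 39 beside 9.56% of all genes, both higher in flox/flox glands. For both genes flox/+ replicate 2 held the highest reading, and it was left out after its readings were seen. Leaving it out lowers the controls, so this direction follows in part from that choice. Cd2 then read 123 ± 3.83 in 3 controls and 184 ± 44.8 in 4 flox/flox glands, and Cd8a 144 ± 12.2 and 159 ± 4.02. Over all 8 arrays the 95% interval of the log2 difference was wide for the genes with the widest gaps, from -2.30 to 0.54 for Cr2, and narrower for Cd4, from -0.46 to 0.18.

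**Figure D5:**
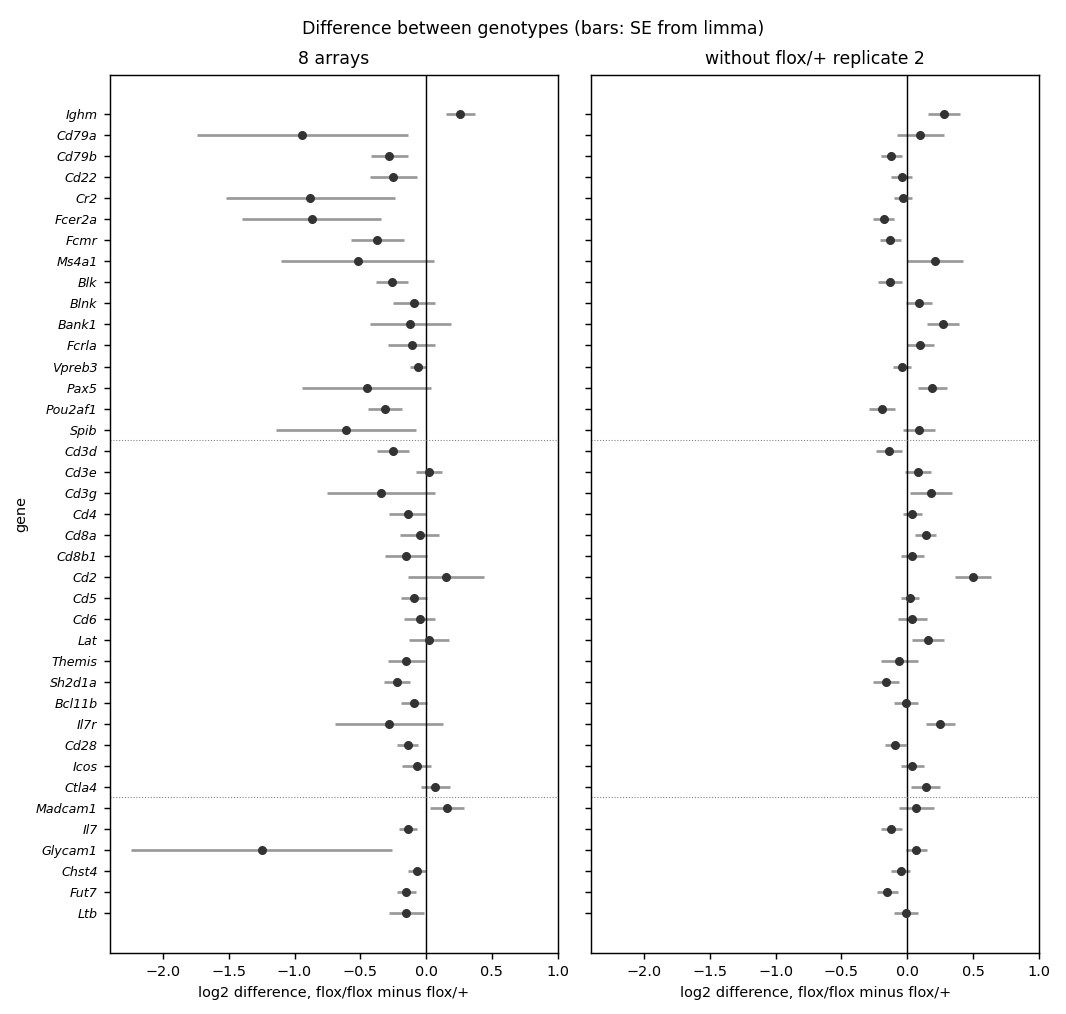
Log2 difference, flox/flox minus flox/+, of each of the 39 genes with its SE from limma, over all 8 arrays on the left and without flox/+ replicate 2 on the right. Dotted lines separate B cell, T cell and stroma genes. The points of Glycam1, Cd79a, Cr2 and Fcer2a, at -1.25 to -0.87 on the left, lie between -0.18 and 0.10 on the right.

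The companion lists gave no call over all 8 arrays: 0 genes passed in any of the 9 lists of other lymphoid, leukocyte and venule genes. Jchain, the chain that joins IgA and IgM of plasma cells, had the smallest p of the plasma cell list. It read 76.8, 118, 69.7 and 55.0 in the controls and 150, 160, 131 and 307 in flox/flox glands, without overlap (log2 difference 1.05 ± 0.24, limma adjusted p = 0.188, and 1.22 ± 0.23 without flox/+ replicate 2). The other genes of that list named by the same rule were not higher in flox/flox glands: Irf4 differed by -0.58 ± 0.19, Sdc1 by -0.29 ± 0.17 and Xbp1 by -0.10 ± 0.10. Sdc1 and Xbp1 read at least 421 and 1479 in every gland, where Jchain read at most 307. How far Irf4, Sdc1 and Xbp1 report plasma cells in this tissue was not tested. Of the 24 genes of the list 11 were measured. Without flox/+ replicate 2 a single gene of these lists passed, Cytip, which regulates leukocyte adhesion, at 158, 141 and 134 in the controls and 249, 244, 219 and 246 in flox/flox glands (0.67 ± 0.08, adjusted p = 0.0388). With flox/+ replicate 2, which read 318, the highest of the 8, its difference was 0.41 ± 0.21 (limma adjusted p = 0.546). Without that array 0.0502% of all genes passed, and it was left out after its readings were seen.

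Genes with the smallest p in the remaining lists were Cd40 (-0.18 ± 0.06), the base excision enzyme gene Neil1 (-0.20 ± 0.08), Gata3, which luminal epithelium also expresses (-0.48 ± 0.14), Gpr183 (-0.31 ± 0.12), Tbx21 (-0.17 ± 0.07), Mfge8 (-0.31 ± 0.10), Sele (0.22 ± 0.06) and Ptprcap (-0.21 ± 0.09), none of which passed. For Gpr183, which guides B cells around follicles, Mfge8, a secreted protein of epithelium and of follicular dendritic cells, and Ptprcap, a partner of CD45, flox/+ replicate 2 was the highest array. Their differences without it were -0.19 ± 0.08, -0.28 ± 0.10 and -0.12 ± 0.08.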

How the data were processed

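Total RNA of 8 mammary gland pieces, 4 per genotype, was measured on single-colour arrays. The deposited intensity values are linear; per the submitters' processing notes, PLIER in Affymetrix Expression Console 1.0 made them. Its background correction and normalization are not stated in the labels or headers. Of 35557 probe sets 21789 had 1 gene symbol, 1621 several and 12147 none here. Probe sets with 1 symbol were named by the platform annotation, and 21698 matched RefSeq. Here, an offset of 16 was added to each intensity, values were taken as log2, and the arrays were quantile normalized over all probe sets. Probe sets with 1 symbol were kept, with the highest mean per gene where a gene had several (999 genes), which left 19938 genes. Genotypes were compared with limma 3.58.1 (R 4.3.3, lmFit and eBayes, no block), with Benjamini-Hochberg adjustment over all genes and a threshold of 0.05. Precision is limited by how few arrays there are.

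The 40 genes, the companion lists and the tests were chosen with earlier results of these data known. All 40 genes were named. The rule for other names was the 3 brightest genes on average and the 1 with the smallest p of each companion list, and the brightest of each list of another cell type. Cxcl13, Cxcr5, Ccl19, Ccr7, Cytip, Gimap3, Csn2 and the genes in no list were named outside this rule, after their values were seen. On simulated data with 50 genes changed at each size, the test recovered 52% of genes at a log2 change of 0.5 and 94% at 1, with 8.02% of its calls false. The changed genes were drawn from all genes, whose SD within genotypes had a median of 0.12, against 0.249 for the 39. Those rates therefore do not hold for the 39, for which recovery was not simulated. The array medians as deposited lay between 159 and 178, and no arrays were identical (median absolute log2 difference of a pair 0.102 to 0.157). Replicate numbers did not pair the samples. Alternatives were the deposited values without normalization, median centring, other offsets, a filter on low values, the mean over probe sets, trended and robust or weighted fits, a replicate block and leaving out each array.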

Additional observations from a re-analysis of the deposited data

Results flagged for a closer look

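Within a genotype, a sample was marked when its gap to the nearest of the others, divided by the group's whole range, was above Dixon's 95% critical value for 4 samples. Chance marks about 1 in 20 groups, and here 5.49% of all genes were marked among the controls and 5.28% among flox/flox glands. Of the 39 lymphocyte and lymph node genes 12 were marked among the controls and 0 among flox/flox glands. For 11 of the 12 the marked sample was flox/+ replicate 2, on the high side. Its intensity was 1073 for Cd79a, 957 for Cr2, 635 for Fcer2a, 289 for Fcmr, 272 for Bank1, 761 for Pax5 and 909 for Spib among B cell genes. Among T cell genes it was 376 for Cd3g, 351 for Cd2 and 826 for Il7r, and for the vessel gene Glycam1 it was 4672. The other marked value was that of Ighm, which was low in flox/+ replicate 1, at 210.

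Of the named companion genes, Ccr7 at 362, Cxcl13 at 2115 and Ptprcap at 356 were marked as high in flox/+ replicate 2. In flox/flox glands, Neil1 was high in replicate 2 at 177, Lsp1, a leukocyte cytoskeleton gene, was low in replicate 2 at 849, Cytip was low in replicate 3 at 219 and Gimap3 was low in replicate 4 at 54.4. The skeletal muscle actin gene Acta1 was low in flox/+ replicate 4 at 457.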

How the results depend on the processing

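Under 17 alternatives, 8 of which left out 1 array each, none of the 39 genes passed the limma threshold, and their lowest adjusted p over all settings was 0.252. The sign of the log2 difference stayed the same under every alternative for 20 genes and changed for 19. Without flox/+ replicate 2 it turned for 16 of them. With 1 array left out in turn, the difference ran from -1.40 to 0.10 for Cd79a, -0.92 to 0.21 for Ms4a1, -0.20 to 0.09 for Blnk, -0.28 to 0.27 for Bank1, -0.24 to 0.10 for Fcrla, -0.71 to 0.19 for Pax5 and -0.90 to 0.09 for Spib. For T cell genes it ran from -0.04 to 0.08 for Cd3e, -0.55 to 0.18 for Cd3g, -0.22 to 0.04 for Cd4, -0.15 to 0.14 for Cd8a, -0.27 to 0.04 for Cd8b1, -0.14 to 0.02 for Cd5, -0.13 to 0.04 for Cd6, -0.14 to 0.16 for Lat, -0.51 to 0.25 for Il7r, -0.13 to 0.04 for Icos and -0.03 to 0.14 for Ctla4. For Glycam1 it ran from -1.74 to 0.07. The median difference ran from -0.39 to 0.03 over B cell genes, from -0.16 to 0.04 over T cell genes and from -0.16 to -0.03 over stroma genes. Array weights turned Lat alone, to -0.05. The count of the 39 genes without overlap was 0 over all arrays, beside 5.89% of all genes. It ran from 0 to 5 with 1 array left out, where fewer arrays leave less room to overlap. Without flox/+ replicate 2 it was 2, beside 9.56% of all genes. For the other arrays left out the share over all genes is not given, so those counts cannot be judged. Leaving out the dimmest genes by mean level kept 15 of the 39, Glycam1 alone among stroma genes, so that their median became -1.25. Outside flox/+ replicate 2 Glycam1 read 93.3 to 115, close to Fut7 at 91.5 to 117, which was left out. Its place above the filter, like the -1.25, thus rested on the reading of 4672 in flox/+ replicate 2. Over all genes 8 passed, and 18 passed with median centring, 4 with an offset of 1, 19 with an offset of 64, 3 without the dimmest genes and 17 with trended and robust moderation; this count ran from 2 to 21 with 1 array left out. The cause was not tested. The replicate number as a block left 8 genes past the threshold, 0 of the 39, and the medians at -0.30, -0.09 and -0.15; the correlation of deviations of same-numbered arrays ran from -0.2041 to 0.2086. Sox9 ran from -0.38 to -0.28 with 1 array left out.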

Other observations

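Of the 48 genes at least 1.5 times as high in flox/+ replicate 2 as in the next array, 14 were among the 40 genes, 13 were in the companion lists and 21 were in no list. Slamf6, a receptor of T and B cells, led the last kind at 317 against 60.9 to 84.2 elsewhere. Cd209b, which encodes SIGNR1, a lectin of macrophages of the lymph node sinus and splenic marginal zone, read 500 there and 190 to 264 elsewhere, and Cd69, an early activation antigen that retains lymphocytes in tissue, read 103 there and 31.4 to 55.9 elsewhere. The signalling genes Tespa1, Grap2 and Stap1 of lymphocytes read 185, 173 and 141 there. Dsc3, a desmosomal cadherin of basal epithelium, and Slc7a11, a cystine transporter, were also among the 21, at 124 and 51.2. These genes were picked from the 21 after their values were seen.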
